A study of Mus musculus with 16 samples.

Results

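MiRNAs that varied most, and that varied together, were described among 6 whole lungs of 1 group, the untreated allergic mice (OVA/OVA), out of 16 lungs in the series. The members were the mouse miRNAs that the scanner software called detected on all 6 arrays, 218 of the 611 on the array. Each lung was hybridised to its own Agilent 1-colour microarray, on which a miRNA is measured by several probes and a probe by several spots. The OVA/OVA mice were BALB/c animals of 8 to 12 weeks that received an intraperitoneal injection of 50 μg ovalbumin (OVA, an egg-white protein that serves as the allergen) with the adjuvant Alhydrogel (1 mg) on day 0. They were challenged intranasally with 10 μg OVA from day 12 to day 15, with PBS in place of the steroid dexamethasone (DEX), and lungs were taken 24 hours after the last challenge, on day 16. All 6 animals thus had the same strain, allergen, vehicle and endpoint, and groups were not tested against each other. The other 10 arrays, 4 of dexamethasone-treated allergic mice (OVA/OVA DEX), 4 of challenged mice without sensitisation (PBS/OVA) and 2 of mice with neither (PBS/PBS), served for the scaling and for values given beside those of the OVA/OVA arrays. A whole lung pools airway, vessel, blood and infiltrating cells, so fewer cells of a type and less RNA per cell cannot be told apart in these values. Nothing in the labels says that the replicates were housed or extracted apart, so p-values measure only the spread between these arrays, which may be technical.

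MiRNAs are short RNAs that are cut from hairpin precursors and pair with messenger RNAs through their seed, bases 2 to 8 from the 5′ end, to lower translation and stability. Either arm of a hairpin can give a mature miRNA, named -5p or -3p. In allergic lungs miR-155-5p and miR-223-3p are carried largely by leukocytes, miR-451 and miR-144 by red cells, miR-126 by endothelium, the miR-200 family by epithelium, miR-449 by ciliated airway cells, and miR-1 and miR-133 by striated muscle, which in mouse lung includes the cardiac muscle around pulmonary veins. Members of a cell's repertoire are therefore often seen to vary together between tissue pieces.

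The sequences of the members on which the results turn are given from RefSeq (build GRCm38.p6), where 186 of the 218 members were matched by name, with the seed in capitals. All of these were among the 30 most variable members. The first 3 hold repeats of UG, the next 2 repeats of CA, the following 3 many C and U, and the 3 after them many G. MiR-494-3p, with the widest spread, comes last.
miR-1187: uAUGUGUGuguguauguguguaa
miR-574-5p: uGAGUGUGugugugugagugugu
miR-669n: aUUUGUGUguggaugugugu
miR-574-3p: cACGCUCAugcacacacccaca
miR-467f: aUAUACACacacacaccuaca
miR-877-3p: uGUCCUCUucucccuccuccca
let-7b-3p: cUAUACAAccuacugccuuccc
let-7d-3p: cUAUACGAccugcugccuuucu
miR-139-3p: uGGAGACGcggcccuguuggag
miR-1895: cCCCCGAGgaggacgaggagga
miR-705: gGUGGGAGguggggugggca
miR-494-3p: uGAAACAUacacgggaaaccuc
The next sequences are those of markers whose levels are followed below. Of all those printed, miR-449a-5p and miR-449c-5p were the pair with an identical seed (GGCAGUG).
miR-133b-3p: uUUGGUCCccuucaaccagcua
miR-155-5p: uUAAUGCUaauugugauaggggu
miR-21-5p: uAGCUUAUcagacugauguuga
miR-223-3p: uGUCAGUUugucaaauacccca
miR-142-3p: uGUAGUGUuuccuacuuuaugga
miR-449a-5p: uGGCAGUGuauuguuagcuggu
miR-449c-5p: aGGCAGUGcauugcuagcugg
miR-451: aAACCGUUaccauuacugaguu
Their mature sequences start far apart: miR-155 on chromosome 16 (start 84714143, plus strand), miR-223 on X (96242884, plus), miR-449a on 13 (113037549, plus, near miR-449c at 113036008), miR-133b on 1 (20682834, plus) and miR-451 on 11 (78073186, plus). Both arms of miR-574 come from 1 hairpin on chromosome 5, at 64970328 to 64970350 and 64970364 to 64970385 of the plus strand, and miR-494 lies in the imprinted Dlk1-Dio3 locus on chromosome 12 (109715367 to 109715388, plus). The RefSeq names of miR-21-5p, miR-142-3p and miR-451 are miR-21a-5p, miR-142a-3p and miR-451a.

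The arrays differed in brightness, the signal summed over all 611 mouse miRNAs before scaling. The sums were 707731, 407898, 286004, 733489, 371463 and 251350 in replicates 1 to 6, a 2.92-fold range, so that replicates 1 and 4 were bright and the other 4 arrays dimmer. Replicates 1 and 2 lay on 1 slide and replicates 3 to 6 on the other, so each slide held 1 bright array. The median signal of the positive control spots, which do not measure lung miRNAs, ran with the brightness (Pearson r = 0.97, exact permutation p = 0.00278, and Spearman rho = 0.94, exact permutation p = 0.0167, n = 6), and r was 0.92 without replicates 1 and 4, the arrays farthest from the median brightness. Between 240 and 301 mouse miRNAs were detected on an array, 0 spots were saturated, and 1 member value lay at the floor set on dim signals. MiRNAs of liver, brain and pancreas were 8 on the array, with 0 among the members and 1 detected on any of the 6 arrays. Endothelial, epithelial, haematopoietic and smooth muscle markers were all represented among the members.

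Most members were steady between lungs. Signals were scaled to a common 75th percentile, so that a value is the log2 of the scaled signal and a standard deviation (SD) is on that scale over the 6 arrays. The median SD was 0.18 (quartiles 0.11 and 0.32), with a range of 0.038 to 2.02. An SD under 0.2 was found for 120 members. An SD of at least 0.5 was found for 30 members (13.8%), which held 76.1% of the variance summed over members. At this threshold the members just inside were miR-720 and miR-222-3p (both 0.50) and those just outside were miR-455-3p (0.49) and miR-155-5p (0.49). The error within an array, from the spread of a miRNA's spots, had a median of 0.031, and 170 members had an SD of at least 3 times it. The SD was lower at higher signal (Spearman rho = -0.37 across the 218 members, which share the 6 arrays and are not independent).

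MiR-494-3p, a miRNA of the Dlk1-Dio3 locus, had the largest SD. Its log2 signal was 8.11, 11.29, 9.33, 7.24, 5.88 and 10.39 in replicates 1 to 6, a 42.4-fold range, and its 2 brightest probes ran together (r = 1.00 to 2 decimals). It was high in replicates 2 and 6 and low in replicates 4 and 5. The locus has 54 miRNAs on the array, of which 10 were detected on any of the arrays and 2 were members. The other of these, miR-136-5p, had an SD of 0.20.

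MiR-466f-3p, from a large family of repeat-rich miRNAs, came next among the well-measured members, with 3.41, 6.30, 6.37, 5.90, 7.87 and 7.09 in replicates 1 to 6 (SD 1.51). Replicate 1 was low and replicate 5 high. MiR-1187, a UG repeat, had 5.42, 6.06, 9.01, 5.01, 7.05 and 6.55 (SD 1.43), and here replicate 3 stood above the rest. MiR-574-5p, the UG-rich arm of its hairpin, had 6.55, 6.94, 9.56, 6.29, 7.65 and 7.38 (SD 1.17), again with replicate 3 on top.

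MiR-574-3p, the CA-rich arm of the same hairpin, had 4.68, 6.57, 5.37, 6.56, 8.09 and 7.34 in replicates 1 to 6 (SD 1.25). Here replicate 3 was low rather than high, and the arms did not run together (r = -0.08, exact permutation p = 0.861, and rho = 0.31, exact permutation p = 0.564, n = 6), with r = -0.73 without the 2 arrays farthest from the median of miR-574-3p. MiR-139-3p, the less studied arm of its hairpin, had 5.70, 6.60, 8.09, 4.52, 4.84 and 5.96 (SD 1.29), while its partner miR-139-5p had an SD of 0.15. The remaining members among the 12 most variable were miR-467f (SD 1.08), miR-877-3p (1.01), miR-669n (1.00), miR-1895 (0.98), miR-689 (0.89) and miR-449c-5p (1.58). MiR-449c-5p was dim, with 4.71, 5.11, 4.36, 4.39, 0.77 and 3.37, where the value of replicate 5 is the floor, and its spot error of 0.76 was the highest among the 30.

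Several of these spreads rested on a single array. Without replicate 3 the SD was 0.56 for miR-574-5p, 0.82 for miR-1187, 0.85 for miR-139-3p, 0.59 for miR-689 and 0.38 for miR-1895. Without replicate 1 it was 0.78 for miR-466f-3p, and without replicate 5 it was 0.65 for miR-449c-5p. The other 5 of the 12 kept an SD within 1.5 times the reported value without any 1 array.

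**Figure D1:**
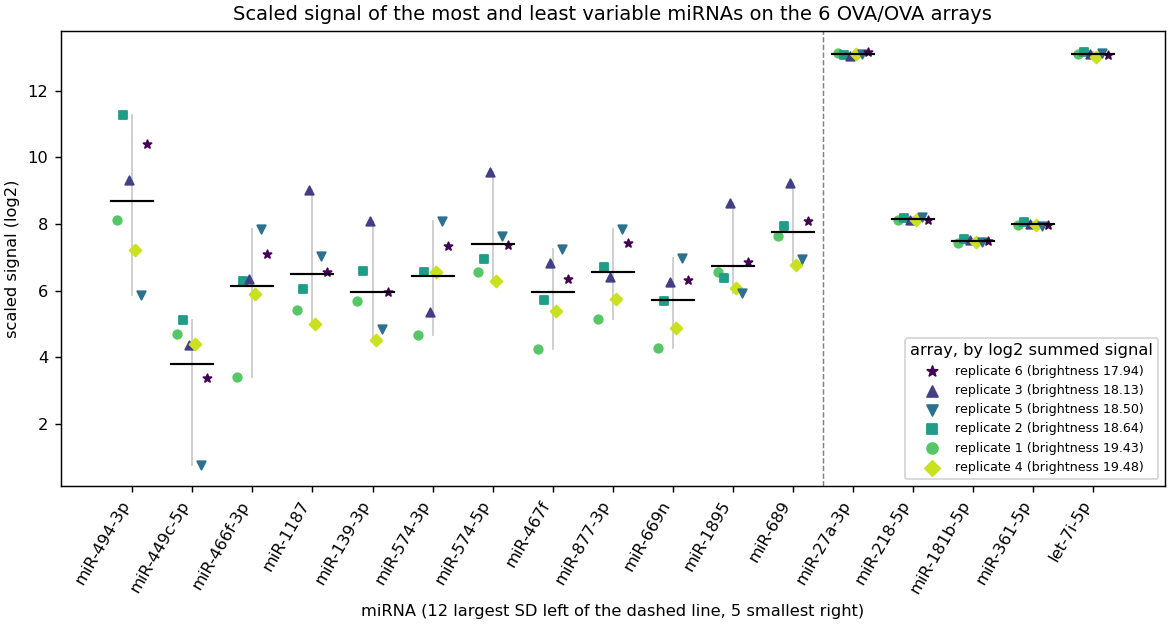
Scaled signal (log2, vertical axis) of the 12 members with the largest SD and the 5 with the smallest, 1 point per OVA/OVA array, with black bars for the means and point colours ordered from the dimmest array (17.94, log2 summed signal) to the brightest (19.48). Replicate 3 tops miR-1187, miR-139-3p, miR-574-5p, miR-1895 and miR-689, replicate 1 is lowest for miR-466f-3p, miR-574-3p, miR-467f, miR-877-3p and miR-669n, and the 5 steady members span at most 1.11-fold. Levels of different miRNAs come from different probes and are not comparable.

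The steadiest members were miR-27a-3p (SD 0.038), miR-218-5p (0.040), miR-181b-5p (0.042), miR-361-5p (0.043) and let-7i-5p (0.051). MiR-27a-3p, for example, had 13.13, 13.08, 13.05, 13.10, 13.09 and 13.16 in replicates 1 to 6, a 1.08-fold range. These are scaled values, from which the 2.92-fold range in brightness had largely been divided out. Some families also lay below the median spread. The 6 members of the epithelial miR-200 family had SDs of 0.086 to 0.23 with a median of 0.098, against a median of 0.18 over all members. The 5 members of the miR-181 family had a median SD of 0.079, and the 4 fibroblast miRNAs (miR-199 and miR-214) one of 0.12.

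Most of the variable members spread more widely between arrays than between their own spots. Of the 30, 28 had an SD of at least 3 times their spot error, against 170 of all 218 members. Their choice by an SD of at least 0.5 largely sets this count. The exceptions were the dim miR-449c-5p and miR-674-5p (spot error 0.62, SD 0.69). The 2 brightest probes of a miRNA could be compared for 27 of the 30, with a median r of 0.98 over the 6 arrays and 26 at 0.9 or above. Over all 214 members that could be compared the median r was 0.93. Probes of 1 miRNA read the same labelled RNA on the same array, so this agreement covers noise of spots and probes within an array. Differences between arrays in extraction, labelling, hybridisation or scanning can move both probes and are not covered.

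**Figure D2:**
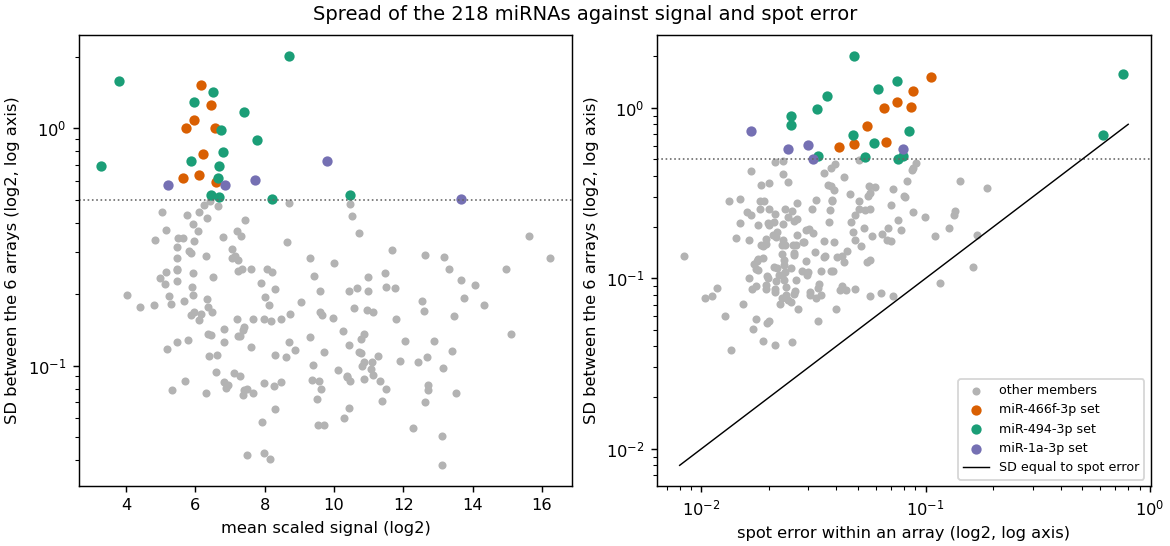
SD between the 6 arrays (log2, log axis) of the 218 members against mean scaled signal (left) and against the spot error within an array (right, log axis), with coloured points for the 30 members at or above an SD of 0.5 (dotted line) in the 3 sets described in the text. Nearly all points lie above the line where SD equals spot error, and miR-449c-5p and miR-674-5p are the coloured points at its far right.

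Grouped by the correlation of their profiles, the 30 variable members fell into 3 sets. The sets and their number were chosen on these values, so they are a description and were not tested. The miR-466f-3p set held 9 members (miR-466f-3p, miR-574-3p, miR-467f, miR-877-3p, miR-669n, let-7b-3p, miR-702, miR-328-3p and let-7d-3p) with a median r between pairs of 0.91. Its mean difference from each member's own mean was -1.40 in replicate 1, -0.01 in replicate 2, 0.15 in replicate 3, -0.50 in replicate 4, 1.15 in replicate 5 and 0.62 in replicate 6. The bright arrays 1 and 4 were its lowest, and all 9 members were lowest in replicate 1 and 8 of the 9 highest in replicate 5.

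The miR-494-3p set was the largest, with 16 members, and the loosest, with a median r between pairs of 0.69 and a range of -0.59 to 1.00. It held miR-494-3p, miR-449c-5p, miR-1187, miR-139-3p, miR-574-5p, miR-1895, miR-689, miR-1897-5p, miR-705, miR-674-5p, miR-721, miR-188-5p, miR-709, miR-135a-1-3p, miR-680 and miR-222-3p. Its mean difference was -0.07, 0.31, 1.12, -0.69, -0.84 and 0.17 in replicates 1 to 6, so that replicate 3 was high and replicates 4 and 5 low. In replicate 3 lay the highest value of 12 of the 16 members, while miR-494-3p, miR-222-3p and miR-449c-5p were highest in replicate 2 and miR-674-5p in replicate 4.

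The miR-1a-3p set ran the other way. Its 5 members were the striated muscle miRNAs miR-1a-3p, miR-133a-3p and miR-133b-3p, together with miR-34b-3p, which ciliated cells make, and miR-720, a name since assigned to a fragment of a transfer RNA. The median r between its pairs was 0.85 and the lowest 0.75. Its mean difference was 0.21, -0.20, -0.85, 0.56, 0.61 and -0.33 in replicates 1 to 6. Replicate 3 was thus lowest where the miR-494-3p set was highest, and replicates 4 and 5 were highest.

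**Figure D3:**
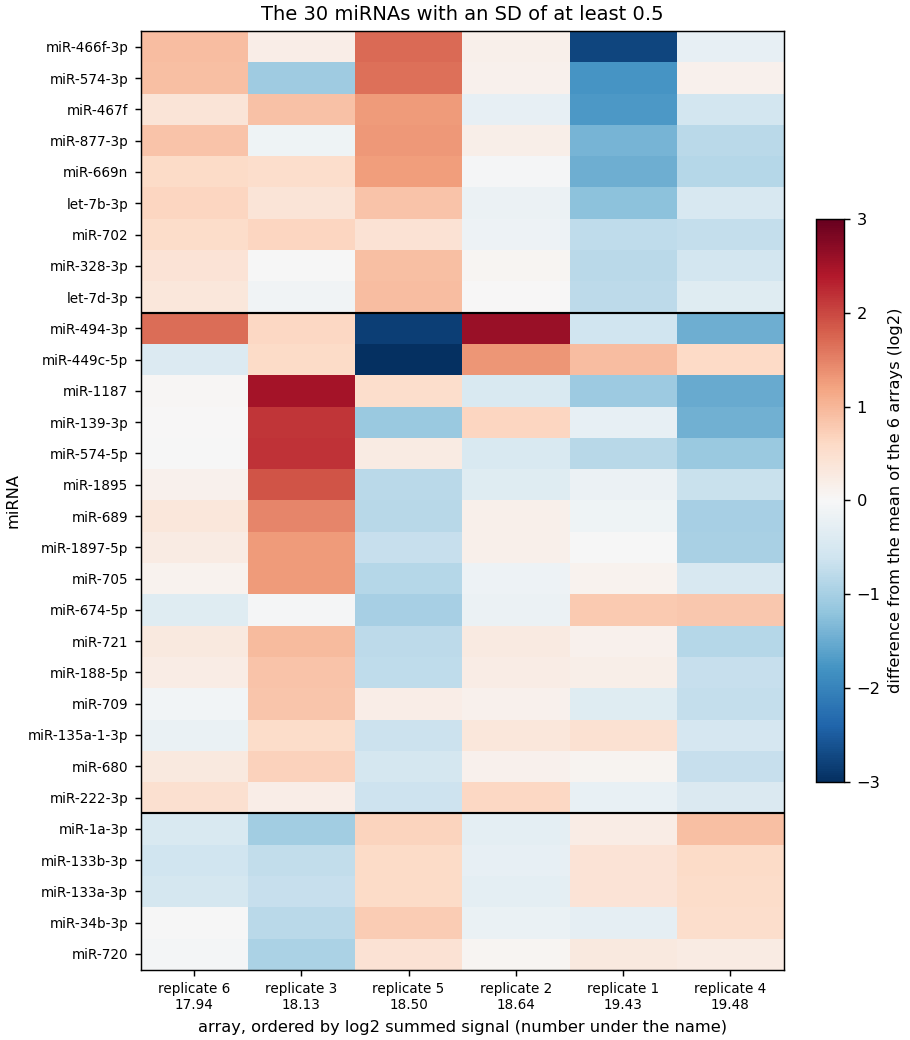
Difference of each log2 scaled signal from the member's mean over the 6 OVA/OVA arrays (colour, red above and blue below) for the 30 members with an SD of at least 0.5, in the order miR-466f-3p set, miR-494-3p set and miR-1a-3p set from top to bottom, with arrays ordered from dim (left) to bright (right). The top block is blue in replicate 1 and, except for miR-574-3p, in replicate 4, the middle block is mostly red in replicate 3 and mostly blue in replicates 5 and 4, and the bottom block is blue in replicate 3 and red in replicates 4 and 5.

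Sequence composition differed between the sets, without a test. The median share of G was 6.82% in the miR-466f-3p set (6 members with a sequence), 45.5% in the miR-494-3p set (13) and 22.7% in the 165 members under an SD of 0.5, and the share of C was 41.8%, 19.0% and 19.0%. The miR-1a-3p set, whose slopes on brightness have the opposite sign, was close to the miR-466f-3p set in both (G 9.09%, C 38.6%, 2 members with a sequence), and miR-669n, of the miR-466f-3p set, has 8 G in 20 bases and no C. In the list above, miR-467f has no G and miR-1187, miR-574-5p and miR-669n no C. The repeat UGUGUG, with its shifted form GUGUGU, and the repeat CACACA, with its shifted form ACACAC, were searched on the mature strand alone, where forms may overlap. Any of these was in 9 members, 4.84% of the 186 with a sequence, against 2.92% of the 1679 mature mouse miRNAs in the table. Of these 9 members, 5 were among the 30, namely miR-1187, miR-574-5p, miR-669n, miR-574-3p and miR-467f, while let-7b-5p (SD 0.26), miR-342-3p (0.17), miR-362-3p (0.22) and miR-672-5p (0.44) were not. Across the 186 members the share of G correlated weakly with the loading on the first component (rho = 0.31) and the share of A with the slope on brightness (rho = 0.38). These are descriptions across miRNAs that share arrays and families, and the part of base composition in the spread was not tested.

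A principal component is a weighted pattern over the 6 arrays that takes up as much of the members' variance as it can. The first component held 44.3%, the second 34.9% and the third 13.8%. On the first, signed so that miR-155-5p loads positively, replicates 3 (0.54) and 2 (0.31) lay at one end and replicates 5 (-0.67) and 4 (-0.38) at the other, with replicates 1 (0.12) and 6 (0.09) between. MiR-494-3p (3.67), miR-139-3p (2.61), miR-449c-5p (2.58) and miR-689 (1.78) had the largest positive loadings, and miR-574-3p (-1.81), miR-1a-3p (-1.45) and miR-34b-3p (-1.25) the most negative. The 12 members with the heaviest loadings carried 60.4% of it.

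The first component did not follow brightness detectably (r = -0.33, exact permutation p = 0.519, and rho = -0.20, exact permutation p = 0.714, n = 6), and r was -0.31 without replicates 1 and 4. This call depended on the processing, with r = -0.99 (exact permutation p = 0.00139) under normexp background correction, -0.76 (exact permutation p = 0.0431) in the 36 members matched to the deposited processed values, 1.00 (exact permutation p = 0.00278) without scaling, and -0.93 to 0.41 without 1 array, where the sign turned without replicate 3 or 4. Normexp was run with an offset of 50 added to every spot, and the part of this offset was not tested. In the main setting the second did so before adjustment (r = 0.91, exact permutation p = 0.0264), though not by rank (rho = 0.71, exact permutation p = 0.136), and over the 3 components compared the adjusted p-values were 0.0792 and 0.408. Replicates 1 (0.65) and 4 (0.40) were its high end, and r was 0.49 among the 4 dimmer arrays. Leaving out 1 array gave r of 0.31 without replicate 5, 0.64 without replicate 1, 0.91 without replicate 4 and 0.87 to 0.95 without each of the others, and the exact permutation p passed 0.05 only without replicate 4 or replicate 6. Its heaviest loadings were those of miR-466f-3p (-2.97), miR-1187 (-2.51), miR-467f (-2.35) and miR-669n (-2.20), which are lower on bright arrays. With arrays and brightness centred on their slide, r was -0.75 (exact permutation p = 0.146) for the first component and 0.62 (exact permutation p = 0.313) for the second. The slides held 2 and 4 of the arrays, so no correlation is given for a slide alone.

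**Figure D4:**
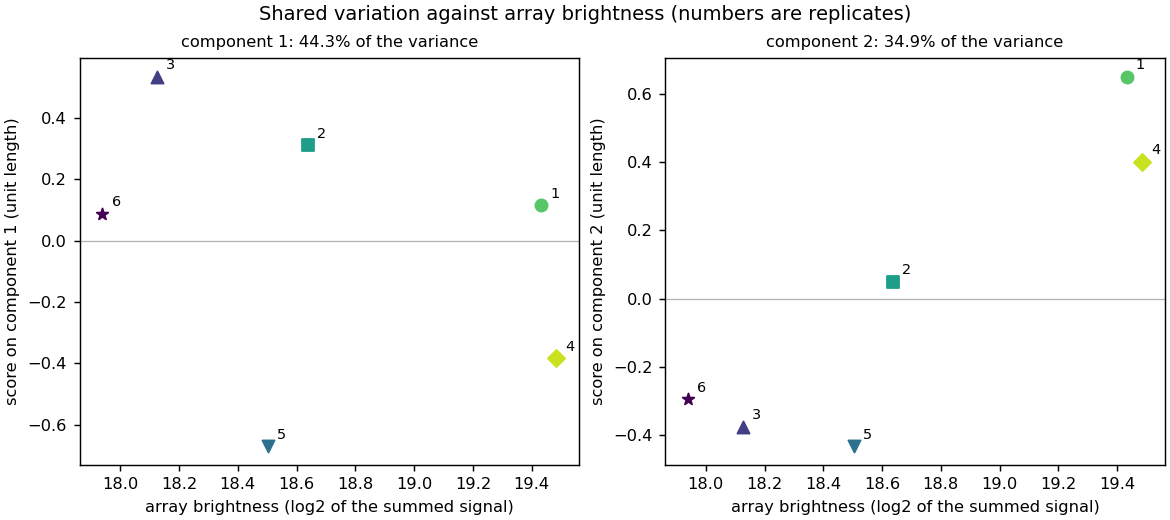
Score of each OVA/OVA array (numbers are replicates) on the first component (left) and the second (right) against array brightness, the log2 of the summed signal. On the left, scores of the bright arrays 1 and 4 fall on both sides of 0, and on the right these arrays have the highest scores, 0.65 and 0.40.

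Member by member, the dependence on brightness was asked as a slope, the difference in log2 scaled signal per 1 unit of log2 brightness. By limma with Benjamini-Hochberg adjustment, 0 of the 218 members passed an adjusted p of 0.05 (0% called, lowest adjusted p = 0.0731). At an unadjusted p under 0.05 there were 23, of which 8 were positive (3.67% of members) and 15 negative (6.88%). By exact permutation of r, 0 passed after adjustment (0%, lowest adjusted p = 0.538) and 11 before it (5.05%), where the smallest p that 6 arrays allow is 0.00139. Of the 23, 13 were among the 30 variable members. Over all members the slopes balanced, with 114 negative and a median of -0.01, which the scaling to a common percentile largely sets.

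No slope was thus called, and the extremes are given as values. The most negative were those of miR-1187 (-1.67, standard error 0.59), miR-466f-3p (-1.61, 0.70), miR-494-3p (-1.35, 1.16) and miR-574-5p (-1.30, 0.52). The most positive were those of miR-674-5p (0.81, 0.30), miR-1a-3p (0.81, 0.33), miR-449c-5p (0.79, 0.95) and miR-133b-3p (0.73, 0.24). The lowest p belonged to miR-702, with 5.35, 5.94, 6.74, 5.38, 6.54 and 6.65 in replicates 1 to 6 and a slope of -0.94 (standard error 0.13, limma adjusted p = 0.0731). Its values on the bright arrays 1 and 4 lay below all others, with r = -0.96 (exact permutation p = 0.0056, adjusted 0.538), rho = -0.89 (exact permutation p = 0.0333) and r = -0.79 without those arrays. It passed the limma threshold with scaling by summed signal (adjusted p = 0.024), brightness as the 75th percentile (0.0207) or the control spots (0.00861), members detected on at least 4 arrays (0.0376), normexp (2.86e-05) or without replicate 5 (0.0391), and its slope was 0.088 without scaling between arrays. MiR-149-5p followed with a slope of -0.52 (standard error 0.08, limma adjusted p = 0.0863) and r = -0.81 without the bright arrays.

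By set, all 9 members of the miR-466f-3p set had negative slopes (median -1.02), as had 14 of 16 in the miR-494-3p set (-0.59), whereas all 5 of the miR-1a-3p set had positive ones (0.68), against 114 negative of 218. The signs of the miR-466f-3p set were the same under every scaling between arrays, and without scaling 5 of its 9 slopes were positive. For the miR-1a-3p set, normexp background correction left 3 of 5 positive. In the other 10 arrays of the series, each centred on its own group, brightness spanned 0.25 to 0.54 log2 units within a group, against 1.55 here. There the 9 slopes of the miR-466f-3p set were negative again (median -1.26) and its members ran together (median r between pairs 0.94), while the 5 slopes of the miR-1a-3p set were negative (median -0.69). Over all 218 members, 78 slopes were negative in those arrays (median 0.14), and the median r between pairs was 0.17. These values were not tested.

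Over all 23653 pairs of members the median Pearson r was 0.02 (quartiles -0.42 and 0.46). An exact permutation p under 0.05 was found for 2643 pairs (11.2%), and by the same exact permutation test 0 (0%) passed after adjustment, where the lowest adjusted p was 0.286. The smallest p that this exact test allows here is 0.00139. Over 23653 pairs, a pair at that p cannot pass after adjustment unless many others share it. The adjusted test thus cannot decide whether a single pair runs together beyond chance, and those named are given as values. Pairs with a biological tie had higher values, which were not tested. The median r was 0.66 for 106 pairs with the same seed, 0.57 for 292 pairs from 1 list of markers, clusters or families, and 0.26 for 29 pairs of arms of 1 hairpin, against 0.01 for 23319 pairs with none of these ties. An r of at least 0.9 was found in 30.2% of same-seed pairs, 19.9% of same-list pairs, 10.3% of hairpin pairs and 2.50% of unlinked pairs. MiRNAs of 1 seed are often close in sequence throughout, and the part of shared binding to probes was not tested.

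Arms of 1 hairpin, which are cut together from it and then kept or discarded, ran together or apart. The arms of miR-30a (r = 0.96, log2 ratio SD 0.18), miR-378 (0.96, 0.11) and miR-29c (0.94, 0.05) ran together, though the ratio SD of miR-30a was above the SD of miR-30a-5p itself (0.12). Those of miR-140 (r = -0.95) and miR-15b (-0.89) were opposed, over SDs of 0.056 to 0.18, and miR-15b-3p had a spot error of 0.17. The widest log2 ratios were those of miR-574 (SD 1.79), miR-877 (1.36) and miR-139 (1.26). The ratio of 2 arms on an array is free of the scaling between arrays, so these SDs of ratios do not depend on it.

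Pairs of variable members were ranked by r with each member used once, leaving out pairs that share a hairpin, a seed or a list of cell markers, a cluster or a family. The 5 highest by this rule were miR-1897-5p with miR-689 (r = 1.00, rho = 1.00), miR-188-5p with miR-721 (1.00, 0.94), miR-1187 with miR-574-5p (0.99, 1.00), miR-222-3p with miR-494-3p (0.99, 1.00) and miR-328-3p with miR-877-3p (0.99, 1.00). Their exact permutation p-values were 0.0014 to 0.0042 for r and 0.0028 to 0.0167 for rho, with adjusted p-values of 0.286 to 0.406, and r without the 2 arrays farthest from the first member's median stayed at 0.98 to 1.00. MiR-1897-5p and miR-689 stand together in a list chosen on these data, and miR-188-5p and miR-721 among the miRNAs that the study lists, which the rule did not count. Equal order did not mean equal size: the log2 ratio of miR-1897-5p to miR-689 had an SD of 0.12, and that of miR-222-3p to miR-494-3p one of 1.52. Of all 435 pairs of variable members, with ties left in, 24 had an r of -0.9 or below and 50 an r of at least 0.9. Over all 23653 pairs of members the counts were 333 and 646, and the difference was not tested. The 5 lowest by the same rule were miR-328-3p with miR-674-5p (r = -0.98), miR-1a-3p with miR-689 (-0.98), miR-188-5p with miR-34b-3p (-0.98), miR-1895 with miR-720 (-0.97) and miR-133b-3p with miR-680 (-0.89), with exact permutation p-values of 0.0014 to 0.0139, rho of -0.77 to -1 and r without the 2 farthest arrays of -0.59 to -0.97. Without scaling between arrays, r for miR-328-3p, miR-188-5p and miR-133b-3p with these partners turned positive, as it did for the first and second of these under normexp.

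Some miRNAs of inflammatory cells had like profiles. MiR-155-5p, which activated lymphocytes and myeloid cells induce, was 8.91, 9.24, 9.11, 8.19, 8.06 and 8.67 in replicates 1 to 6 (SD 0.49), a 2.27-fold range. MiR-223-3p, a miRNA of neutrophils and other myeloid cells, was 12.76, 12.99, 12.88, 12.27, 12.35 and 12.55 (SD 0.29). Both were low in replicates 4 and 5 and highest in replicate 2, with r = 0.98 (exact permutation p = 0.0028, adjusted 0.313), rho = 0.94 (exact permutation p = 0.0167, adjusted 0.406) and r = 1.00 without the 2 arrays farthest from the median of miR-155-5p.

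MiR-21-5p, which many cells raise in inflammation, was 16.28, 16.50, 16.42, 15.80, 15.95 and 16.39 (SD 0.28), and miR-142-3p, found in all blood lineages, was 15.07, 15.14, 15.18, 14.71, 14.60 and 15.15 (SD 0.26). Both were again lowest in replicates 4 and 5. The 7 haematopoietic members had a median SD of 0.25 and a median r between pairs of 0.55, with pairs from -0.01 to 0.98. MiR-342-5p, of the same list, was highest in replicate 4 (5.33), and miR-342-3p lowest in replicate 6 (9.31). The mean log2 signal of the 7 was 9.94 and 9.78 in replicates 4 and 5 against 10.07 to 10.33 elsewhere. Replicate 4 was the brightest array and replicate 5 one of the dimmer ones. The slope of miR-155-5p on brightness was -0.17 (standard error 0.31, limma adjusted p = 0.870), with r = -0.23 (exact permutation p = 0.619), so no dependence was detected over 6 arrays. Its sign turned with the percentile over all mouse miRNAs, with quantile normalization, without scaling and without replicate 4.

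The members most like miR-155-5p by r were miR-130b-3p (0.98), miR-19a-3p (0.98) and miR-223-3p (0.98). Those most like miR-223-3p were miR-19a-3p (0.99), miR-20a-5p (0.99) and miR-20b-5p (0.98), the first and second from the miR-17 cluster and the third a close relative. Those most like miR-21-5p were miR-1224-5p (0.99), miR-378-3p (0.98) and miR-362-5p (0.94). These 9 pairs had exact permutation p-values of 0.0014 to 0.0292 and adjusted p-values of 0.286 to 0.390, over 6 arrays each, and r without the 2 farthest arrays ran from 0.48 to 1.00.

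Ciliated cell miRNAs were split. MiR-449a-5p was 10.47, 11.17, 10.74, 10.07, 9.82 and 10.44 in replicates 1 to 6 (SD 0.48) and ran with miR-155-5p (r = 0.96, exact permutation p = 0.0014, adjusted 0.286, rho = 1.00, and r = 0.97 without the 2 arrays farthest from its own median). Its most alike member was miR-378-5p (0.96). The 5 ciliated members had r between pairs of -0.78 to 0.91 with a median of -0.18, and SDs of 0.088 for miR-34b-5p and 0.096 for miR-34c-5p but 0.57 for miR-34b-3p, which was high in replicates 4 and 5 (5.73 and 5.97) where miR-449a-5p was low.

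Red cell miRNAs had another order. MiR-451, which red cell precursors make in large amounts, was 15.64, 15.07, 15.77, 15.86, 16.03 and 15.37 in replicates 1 to 6 (SD 0.35), highest in replicates 5 and 4 and lowest in replicate 2. MiR-144-3p, from the same transcript, was 11.74, 11.40, 11.95, 11.94, 11.84 and 11.60 (SD 0.21) and ran with it (r = 0.92, exact permutation p = 0.0111, rho = 0.77, exact permutation p = 0.103), though r was 0.36 without the 2 arrays farthest from the median of miR-144-3p. MiR-451 and miR-155-5p had r = -0.72 (exact permutation p = 0.114), and r was -0.20 without the 2 arrays farthest from the median of miR-155-5p, so an opposite order was not shown. Members most like miR-451 were miR-322-5p (0.98), miR-30a-5p (0.97) and miR-30c-2-3p (0.96), and under normexp background correction the second went to 0.03 and the last to -0.17. MiR-126-3p of endothelium spanned 14.86 to 15.28 (SD 0.14), and its partner arm miR-126-5p spanned 9.64 to 10.23 (SD 0.27).

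Striated muscle miRNAs had nearly 1 profile. MiR-1a-3p was 10.02, 9.50, 8.75, 10.69, 10.45 and 9.34 in replicates 1 to 6 (SD 0.73), a 3.83-fold range. MiR-133b-3p was 8.13, 7.48, 6.98, 8.30, 8.30 and 7.12 (SD 0.60), and miR-133a-3p was 7.25, 6.55, 6.15, 7.40, 7.43 and 6.32 (SD 0.58). In each, replicates 1, 4 and 5 lay above replicates 2, 3 and 6, a split that was read off these same values and not tested.

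With miR-208b-3p, a heart and slow muscle miRNA (SD 0.32), the 4 muscle members had the highest median r between pairs of the lists with more than 2 members, 0.96, with a range of 0.91 to 1.00. All 4 had positive slopes on brightness (2 of 4 under normexp), and 3 had a limma unadjusted p under 0.05 against 3.67% of all members in that direction, but 0 passed after adjustment (adjusted p = 0.440 for miR-133b-3p and 0.466 for miR-1a-3p). The smooth muscle members, miR-143-3p and miR-145-5p, had SDs of 0.11 and 0.18, and a mean that spanned 8.66 to 8.95. How much heart or vein muscle a lung piece held was not recorded, and its part was not tested.

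**Figure D5:**
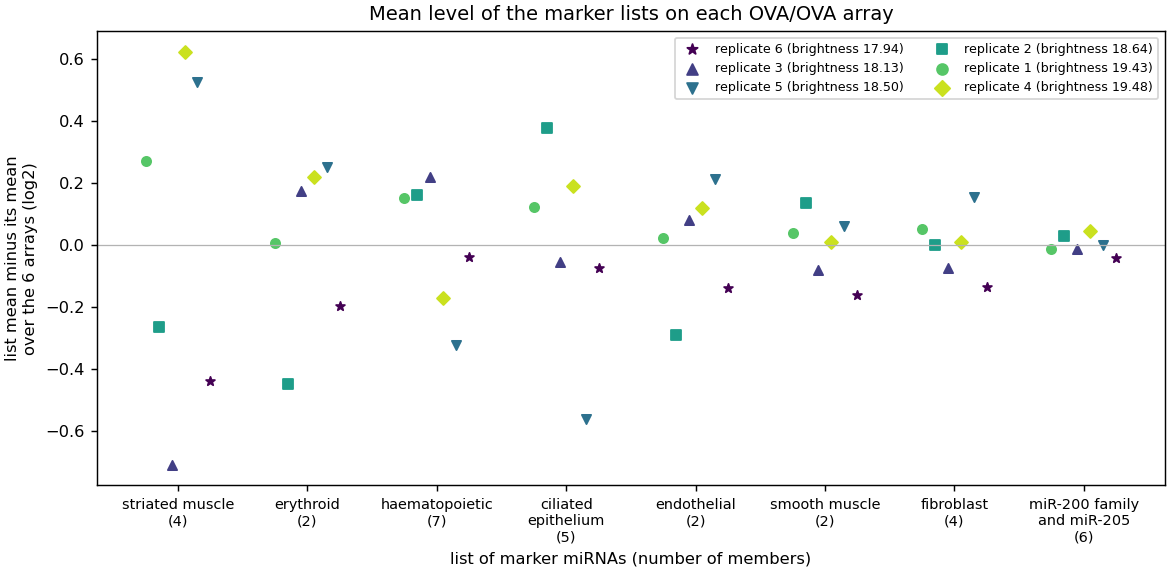
Mean log2 scaled signal of the members of each marker list on each OVA/OVA array, minus its mean over the 6 arrays, with the number of members in brackets and colours from the dimmest array to the brightest. The striated muscle list spans most, with replicates 4, 5 and 1 above 0, and the haematopoietic list has replicates 5 and 4 lowest. The list of the miR-200 family and miR-205, in which miR-205 was no member, stays within 0.05 of 0. The low ciliated point of replicate 5 rests on the floor value of miR-449c-5p.

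Families and clusters fell between these. The 12 let-7 members had a median SD of 0.20 and a median r between pairs of 0.82, and their mean was lowest in replicate 1 (10.62) and highest in replicate 5 (11.33), the same arrays as for the miR-466f-3p set, which holds let-7b-3p and let-7d-3p. The 9 members of the miR-30 family (median SD 0.17, median r 0.69), the 6 of miR-29 (0.13, 0.53) and the 8 of the miR-15/16 family (0.17, 0.35) were tighter in level. The 7 members of the miR-23, miR-24 and miR-27 clusters (0.11, 0.09) hardly shared a pattern. The 7 of the miR-17 cluster (0.24, 0.41) and the 3 of the miR-106b cluster (0.14, 0.35), which are tied to dividing cells, had lower means in replicates 4 and 5 than in replicates 1, 2 and 3, and the miR-106b cluster was lowest in replicate 6 (9.48).

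The X-linked cluster around miR-188 had 6 members (median SD 0.34, median r 0.58), whose mean was 6.58 and 6.62 in replicates 4 and 5 against 6.82 to 7.17 elsewhere. The 6 members named miR-466, miR-467 or miR-669 had a median SD of 0.71 and a median r of 0.70. They are often counted as 1 cluster in the gene Sfmbt2, but RefSeq places miR-467f on chromosome 11 and miR-669n on chromosome 3. A list put together with results of these data known (miR-680, miR-689, miR-721, miR-1224, miR-1897 and both arms of miR-877) had 7 members with a median SD of 0.69 and is no independent group.

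By name, 28 of the 29 miRNAs that the study lists as different between groups were members, all but miR-486-5p. The study chose them on these same arrays, so they are not independent evidence of anything here. Their median SD was 0.35 against 0.18 over all members, 8 had an SD of at least 0.5, and their median r between pairs was 0.75 against 0.02. Their mean was 7.87 and 7.96 in replicates 4 and 5 and 8.32 to 8.61 on the other arrays. The steadiest of them was miR-551b-3p (SD 0.18) and the most variable miR-139-3p (1.29).

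The other allergen-exposed groups had similar spread. The median SD over the same 218 miRNAs was 0.15 in PBS/OVA, mice without sensitisation (4 arrays), and 0.17 in OVA/OVA DEX, the dexamethasone-treated allergic mice (4 arrays). The miR-466f-3p set was as variable there (median SD 1.04 and 1.27, against 1.00 in OVA/OVA), whereas the median of the miR-1a-3p set was 0.23 and 0.36 against 0.58. These are values over few arrays, and the differences were not tested.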

How the data were processed

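Whole-lung RNA of the 6 OVA/OVA mice was hybridised to Agilent mouse miRNA arrays. The authors deposited scanner files in which Agilent Feature Extraction (10.7.3.1) gives each spot's intensity after background subtraction, without normalization between arrays, and also deposited processed log2 values, centred by an undescribed shift and used as an alternative only. Outlier-flagged spots (339 to 394 of 12220 mouse spots) were left out, the spots of a probe averaged and the probes of a miRNA added up. To bring arrays to a common level, signals were divided by the 75th percentile of the 206 miRNAs detected on all 16 arrays of the series. Values below a floor of 1.71 were raised to it before the log2 step. Slopes were fitted with limma 3.58.1 in R 4.3.3 with Benjamini-Hochberg adjustment. Permutation tests ran over all 720 orderings, two-sided. Sets came from average linkage on 1 - r. The slope fit was tested on simulated data, and the exact permutation p of a pair of members was compared with that from scipy. Other steps ran in Python 3.11.15 with scipy 1.17.1, numpy 2.4.6, matplotlib 3.10.9 and pandas 2.3.3. Array number limits precision.

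The members, lists and named miRNAs were chosen with earlier results of these data known. Named were the 12 largest and 5 smallest SDs, 4 slopes of each sign as none was called, miR-702 and miR-149-5p for their p after values were seen, the 5 highest and 5 lowest pairs, the 3 members most like each of 5 markers, and preset markers. The lists were markers of red, haematopoietic, endothelial, ciliated, epithelial, smooth and striated muscle and fibroblast cells and of other organs, 6 families and 5 clusters, and the list chosen on these data. The alternatives changed scaling, background, probe summary, floor, filter, brightness measure, slide block and component, and left out each array.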

Additional observations from a re-analysis of the deposited data

Results flagged for a closer look

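MiR-1895 stood apart on a single array. Its log2 scaled signal was 8.62 in replicate 3 and 5.93 to 6.88 on the other 5 OVA/OVA arrays, so that the gap to the next array was 0.648 of the whole range, above the limit of Dixon's test for 6 samples. Without replicate 3 its SD was 0.38 in place of 0.98. Of 29 named members tested, 1 was marked in this way, and chance marks about 1 in 20.

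The array also carries 39 viral miRNAs, which no comparison used. Of these, 4 were called detected in replicate 1 and 3 in each of the other 5 OVA/OVA arrays. Both PBS/PBS arrays had 3, and 1 PBS/OVA array had 4 as well.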

How the results depend on the processing

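The median SD of 0.18 was 0.693 without scaling, 0.258 with the percentile over all mouse miRNAs, 0.191 over the members, 0.172 by summed signal, 0.213 by the members' median, 0.195 by quantile, 0.273 with normexp, 0.192 with the total gene signal, 0.207 with members detected on at least 4 arrays, 0.152 within slides, 0.249 in the 36 members matched to the deposited processed values and 0.173 to 0.189 without 1 array. The 30 members with an SD of at least 0.5 became 209 without scaling, 54 with detection on at least 4 arrays, 7 of the 36 and 24 to 35 without 1 array. The median r of 0.02 between pairs was 0.93 without scaling, 0.48 with the percentile over all mouse miRNAs, 0.28 by the members' median, 0.49 with normexp, 0 in the deposited values, which are rounded to 1 decimal, and -0.00309 to 0.0439 without 1 array. The first component's 44.3% was 81.0% without scaling, 80.8% with normexp, 48.9% with detection on at least 4 arrays, 54.0% within slides, 72.8% in the deposited values and 46.1% to 56.6% without 1 array. Its r with brightness of -0.33 was 1.00 without scaling (exact permutation p = 0.00278), -0.99 with normexp (exact permutation p = 0.00139), 0.067 with detection on at least 4 arrays, -0.76 in the deposited values (exact permutation p = 0.0431) and -0.93 to 0.41 without 1 array, with the sign turned without replicate 3 (0.41) or replicate 4 (0.27). The second component's 0.91 was -0.052 without scaling, 0.05 with normexp, 0.15 in the deposited values and 0.64 with the percentile over all mouse miRNAs. It was 0.76 without a floor, 0.76 without the dim miR-449c-5p and miR-674-5p and 0.31 without replicate 5. The second component and the setting without these 2 members were looked at after seeing the data.

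By limma the 0 slopes called became 195 (all positive) without scaling, 128 (all negative) with normexp, 4 with detection on at least 4 arrays, 4 without replicate 5 (0 without each other array), and 1 each by summed signal and with brightness as the 75th percentile or the control spots. The median slope over all members was then 1.02 without scaling (210 of 218 positive) and -0.33 with normexp (172 of 218 negative). With normexp the change was not the same for all members. The median slope of the miR-466f-3p set was -0.92 there against -1.02 in the main setting. That of the miR-1a-3p set was 0.065 against 0.68. Normexp also added an offset of 50 to every spot, and the part of this offset was not tested. The slope of miR-702 was 0.088 without scaling. Slopes also turned for miR-449c-5p (-0.87 with normexp, -0.071 with the total gene signal), miR-674-5p (-0.87 and -0.083), miR-149-5p (0.51 without scaling) and miR-155-5p (0.85 without scaling, 0.065 with the percentile over all mouse miRNAs, 0.0085 by quantile, and -0.39 to 0.089 without 1 array, positive without replicate 4). The r of miR-328-3p with miR-674-5p became 0.12 without scaling and 0.98 with normexp, that of miR-188-5p with miR-34b-3p 0.030 and 0.89, that of miR-133b-3p with miR-680 0.41 without scaling, and that of miR-451 with miR-30c-2-3p -0.17 with normexp. Over all named pairs and alternatives, 486 correlations kept their sign and side of the threshold, 33 no longer passed it and 6 turned, and for slopes 226 kept both, 14 newly passed and 10 turned. The cause of these changes was not tested.

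No paired analysis was possible because all 6 arrays belong to 1 group. Dim members had the highest spot errors, and the smallest exact p that 6 arrays allow is 0.00139.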

Other observations

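In the other 10 arrays of the series, each centred on its group, the members' slopes on brightness had a Spearman rho of 0.40 with the slopes among the OVA/OVA arrays, across 218 miRNAs that share arrays and are not independent. The 16 members of the miR-494-3p set had 12 negative slopes there, with a median of -2.09 against -0.59 in the OVA/OVA arrays, and a median r between pairs of 0.45 against 0.69. The 5 members of the miR-1a-3p set, whose pairs had a median r of 0.85 among the OVA/OVA arrays, had one of 0.13 there. Over all 218 members, 78 slopes were negative in those 10 arrays (median 0.14), and the median r between pairs was 0.17.

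The member most opposed to miR-155-5p and to miR-223-3p was miR-10a-5p (r = -0.95 and -0.93, over 6 arrays), a miRNA found in stromal and endothelial cells. The member most opposed to miR-21-5p was miR-208b-3p (-0.96), that to miR-451 was miR-494-3p (-0.92) and that to miR-449a-5p was miR-23b-3p (-0.97). These pairs had adjusted exact permutation p-values of 0.313 to 0.338.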
